A study of Mus musculus with 6 samples.

Results

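ABC transporter genes were measured in mouse colon tumors that had lost Apc together with Tgfbr2 or Apc alone. The genes were chosen by symbol, as Abc followed by a letter from a to g and a number, and 48 genes met this rule among the 19938 genes that had a probe set with a single symbol. They had 49 probe sets, and the set with the highest mean over the 6 arrays was used for each gene. Mice with double knockout (DKO) tumors were CDX2P-G19Cre;Apcflox/flox;Tgfbr2flox/flox. Apc knockout (ApcKO) tumors came from CDX2P-G19Cre;Apcflox/flox mice. Each group had 3 mice aged 3 weeks, and the RNA of each mouse was hybridized to an Affymetrix Mouse Gene 1.0 ST array of its own. The study names C57BL/6J as the strain of the floxed Tgfbr2 mice used in the crosses. Both groups carry the Cre transgene and the floxed Apc alleles, and no normal colon was analysed here. The transgene is driven by a human CDX2 promoter fragment in colon epithelium and is switched on at random in single cells by a frameshift reversion, so cells outside the epithelium keep their alleles. Tumor tissue had been cut out of frozen sections by laser microdissection. All signals are log2 values after RMA, a procedure that corrects background, gives the arrays a common distribution and summarizes the probes of a set. The number of arrays limits the precision, and levels of different probe sets are not compared.

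ABC proteins bind and hydrolyze ATP, and most of them use it to move lipids, bile acids, conjugates or drugs across a membrane. Subfamily A and several members of subfamily G move lipids. Subfamilies B and C and, with Abcg2, subfamily G hold multidrug efflux pumps, and subfamily D works in peroxisomes and lysosomes. Proteins of subfamilies E and F have no membrane part and act in translation. In the intestine, efflux pumps of the apical membrane return drugs, toxins and conjugates to the lumen, and pumps of the basolateral membrane pass them to the blood.

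DKO tumor 2 stood apart from the other arrays. Its correlation with them over all probe sets was 0.956 to 0.968, whereas the other 5 arrays correlated at 0.980 to 0.988. The 15 colonocyte markers were all measured, with a mean signal of 10.53, 11.68 and 9.48 in DKO tumors 1 to 3 and 10.40, 9.67 and 10.11 in ApcKO tumors 1 to 3. DKO tumor 2 was the highest tumor for 12 of them, and it was the lowest for 15 of 16 markers of Wnt targets and crypt stem cells. Tgfbr2 was at 10.60 ± 0.34 in DKO tumors and 11.27 ± 0.15 in ApcKO tumors (SD, n = 3 each), without overlap. Apc was at 10.56 ± 0.35 in DKO tumors and 10.81 ± 0.04 in ApcKO tumors. Where the probes of both genes lie with respect to the floxed exons was not examined, so these levels check the genotype labels only in part. In tissue, fewer cells of a type and less RNA per cell cannot be told apart.

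No ABC gene passed an adjusted p of 0.05 in limma, and 0 of the 16784 genes tested did (0%). Each difference between the genotypes is therefore given as a value, with lower and higher referring to means. Of the 48 ABC genes, 42 were tested, since their mean signal reached 5.88, the 20th percentile over all probe sets. Abcb1b, Abca1 and Abcg1 had lower signals in DKO tumors at an unadjusted p under 0.05 in limma. These 3 of 42 genes stood beside 3.93% of all genes tested in this direction. Abcb10 was the 1 member with a higher signal at this p, beside 1.81% of all genes. The groups did not overlap for 5 members, beside 12.0% of all genes: Abcb1b and Abca1 were lower in every DKO tumor (7.00% of all genes on this side), and Abcb10, Abcc6 and Abcc8 were higher (4.99%). The methods' t-test had an unadjusted p under 0.05 for Abca1, Abcb1b and Abcc8, beside 4.95% of all genes. Abcb1b was the 1 member with a difference over 2-fold and an unadjusted p under 0.05, beside 0.584% of genes on the lower side. The median log2 fold change, DKO minus ApcKO, was 0.027 over the 42 members and 0.0080 over all genes tested. Means were lower in DKO tumors for 16 members and higher for 26, and 48.2% of all genes had a lower mean. With 42 genes, each of these counts rests on 1 to 5 genes, apart from the counts of lower and higher means.

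Abcb1a and Abcb1b both encode P-glycoprotein, the apical pump for hydrophobic drugs that humans make from the single gene ABCB1. The genes are neighbours on chromosome 5, next to Abcb4 (named after its values were seen), which encodes the phosphatidylcholine exporter of bile. The windows from 250 bases before to 50 bases after the start of both genes are shown because the pair encodes one pump and had opposite differences between the genotypes. They are from RefSeq on GRCm38.p6, at chr5:8566841-8567140 (+) for Abcb1a and at chr5:8797897-8798196 (+) for Abcb1b. Capitals mark CTTTGA, the core bound by TCF/LEF factors, or its reverse complement in Abcb1a, and CCAAT or its reverse complement and the GC box GGGCGG in Abcb1b.
Abcb1a: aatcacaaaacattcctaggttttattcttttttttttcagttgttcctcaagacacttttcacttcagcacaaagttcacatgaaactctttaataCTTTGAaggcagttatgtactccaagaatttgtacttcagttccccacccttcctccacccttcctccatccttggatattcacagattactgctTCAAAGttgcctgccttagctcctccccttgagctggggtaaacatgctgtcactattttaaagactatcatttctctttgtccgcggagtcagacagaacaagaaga
Abcb1b: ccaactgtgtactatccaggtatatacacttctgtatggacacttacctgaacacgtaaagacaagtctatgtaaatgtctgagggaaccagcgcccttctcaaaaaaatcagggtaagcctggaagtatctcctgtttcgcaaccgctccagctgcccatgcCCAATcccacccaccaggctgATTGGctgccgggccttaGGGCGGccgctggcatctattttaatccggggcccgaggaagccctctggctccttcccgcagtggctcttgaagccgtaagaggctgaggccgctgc
The Abcb1a window had a GC content of 40.3% and 2 CpG, while the Abcb1b window had 55.0% and 12 CpG, and the median of all 32851 windows was 52.7% and 7 CpG. CTTTGA was found on either strand in 16.0% of all windows, CCAAT in 37.4% and GGGCGG in 35.7%. The Abcb1a window had CTTTGA at −153 from the start and, on the other strand, at −58, and no match for CCAAT or GGGCGG. The Abcb1b window had CCAAT at −87 and, on the other strand, at −66, GGGCGG at −48, and no match for CTTTGA. The SMAD box CAGAC, present in 49.6% of all windows, was in both, at 33 after the Abcb1a start and, on the other strand, at −173 in Abcb1b. These matches describe the letters only.

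Abcb1b had signals of 7.13, 6.84 and 7.51 in DKO tumors 1 to 3 and 8.26, 8.84 and 8.55 in ApcKO tumors 1 to 3. All 3 DKO tumors were below all 3 ApcKO tumors. The means were 7.16 ± 0.33 in DKO tumors and 8.55 ± 0.29 in ApcKO tumors (SD, n = 3 each). This was a log2 fold change of −1.39 with a standard error of 0.22 (adjusted p = 0.821 in limma), a signal 2.62-fold lower with a 95% confidence interval of 1.80 to 3.82. By unadjusted p, Abcb1b ranked 11 among the 19506 probe sets tested. Its log2 fold change was between −1.57 and −1.23 when any 1 tumor was left out, and −1.23 without DKO tumor 2. The study listed Abcb1b among genes it picked from these same tumors, so the direction is not independent evidence.

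Abcb1a had signals of 10.87, 11.27 and 9.95 in DKO tumors 1 to 3 and 10.004, 10.22 and 9.96 in ApcKO tumors 1 to 3. DKO tumors 1 and 2 were above all ApcKO tumors, whereas DKO tumor 3 was the lowest of the 6. The genotypes differed by 0.64 on the log2 scale with a standard error of 0.33 (adjusted p = 0.821 in limma), which is 1.55-fold with a 95% confidence interval of 0.886 to 2.72. It was 0.35 without DKO tumor 2 and 1.01 without DKO tumor 3. Abcb4 had nearly equal means, with a log2 fold change of 0.022 (95% confidence interval −0.29 to 0.33).

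The pair was then compared within each tumor, where the scale of an array cancels out. Abcb1b minus Abcb1a was −3.75, −4.43 and −2.44 in DKO tumors 1 to 3 and −1.74, −1.38 and −1.41 in ApcKO tumors 1 to 3. The difference between the probe sets was wider in every DKO tumor than in any ApcKO tumor, and it varied more among DKO tumors (SD 1.01) than among ApcKO tumors (SD 0.20). Between the genotypes it differed by −2.03 on the log2 scale (95% confidence interval −3.21 to −0.84). The two-sided exact permutation test gave p = 0.1, and no smaller p can be reached with groups of this size. Without DKO tumor 2 the value was −1.58, with an exact permutation p of 0.1. Since the paralogs are similar in sequence, cross-hybridization between their probe sets was not tested.

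**Figure D1:**
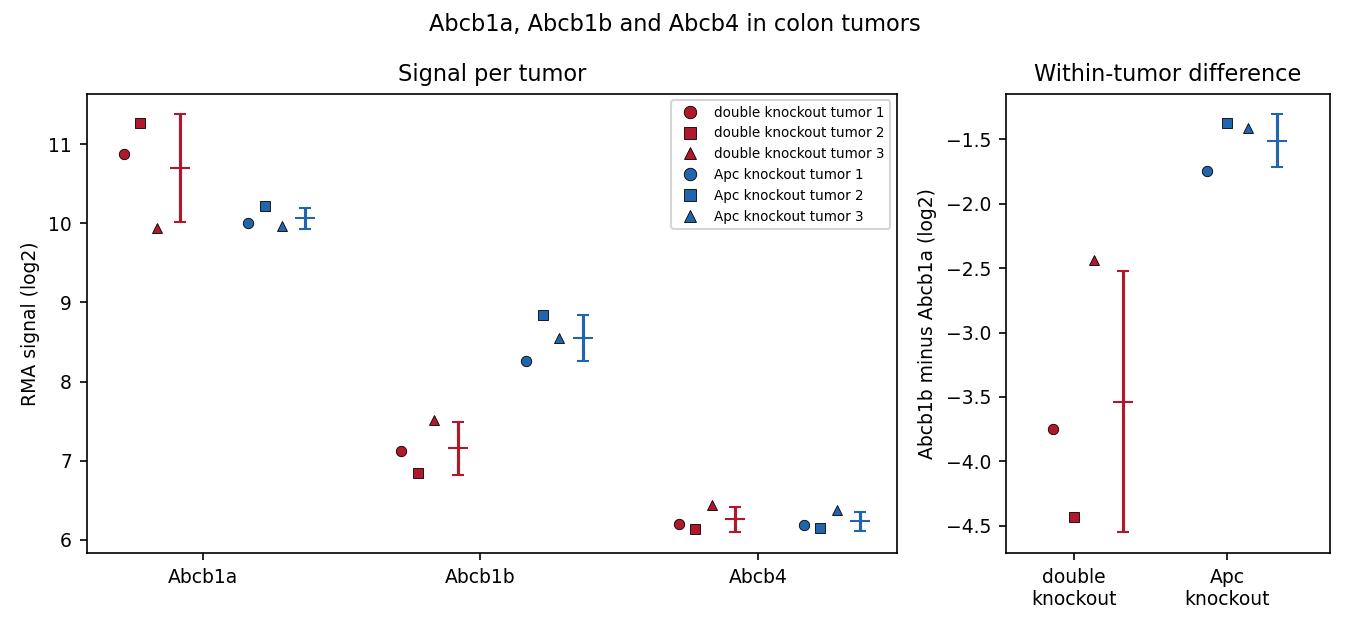
Left, RMA signal (log2) of Abcb1a, Abcb1b and Abcb4 in each tumor (symbols), with DKO left of ApcKO for each gene and group means ± SD beside them; right, Abcb1b minus Abcb1a (log2) within each tumor. Abcb1b was lower in all 3 DKO tumors, Abcb1a was higher in 2 of them, Abcb4 overlapped, and the within-tumor values of −3.75, −4.43 and −2.44 in DKO tumors lay below those of −1.74, −1.38 and −1.41 in ApcKO tumors.

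Among the exporters of sterols and phospholipids, the cholesterol exporters Abca1 and Abcg1 had the largest differences, and both were lower in DKO tumors. Abca1 loads cholesterol and phospholipids on lipid-poor apolipoprotein A-I, and Abcg1 passes cholesterol on to formed HDL particles. Both are targets of the liver X receptors. Abca1 had 10.23, 9.52 and 10.05 in DKO tumors 1 to 3 and 10.85, 10.64 and 11.19 in ApcKO tumors 1 to 3. The groups did not overlap, and DKO tumor 2 was the lowest. The genotypes differed by −0.96 with a standard error of 0.23 (adjusted p = 0.821 in limma), 1.95-fold lower with a 95% confidence interval of 1.32 to 2.87, and −0.76 without DKO tumor 2.

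Abcg1 had 9.504, 8.27 and 8.84 in DKO tumors 1 to 3 and 9.70, 9.48 and 9.90 in ApcKO tumors 1 to 3. DKO tumor 1 lay within the range of ApcKO tumors, and DKO tumor 2 was again the lowest. With a standard error of 0.32 the log2 fold change was −0.82 (adjusted p = 0.821 in limma), and it was −0.52 without DKO tumor 2. Over the 9 members of this list, 3 were lower and 6 higher in DKO tumors, with a median of 0.058, and −0.14 without DKO tumor 2. Abca1 and Abcg1 are also expressed in macrophages. The 8 macrophage markers had means of 9.80, 9.77 and 9.11 in DKO tumors 1 to 3 and 9.69, 9.29 and 9.74 in ApcKO tumors 1 to 3, with overlap. All 10 neutrophil markers had lower means in DKO tumors, with list means between 7.59 and 8.77 in DKO tumors and between 8.75 and 9.51 in ApcKO tumors. Their part in the lower Abca1 and Abcg1 signals was not tested.

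The window around the Abca1 start, on GRCm38.p6 at chr4:53159846-53160145 (−) from RefSeq, is shown because Abca1 was the 1 lipid exporter whose groups did not overlap. Capitals mark GGGCGG at −163 and −97 and the TATA box TATAAA at −29.
Abca1: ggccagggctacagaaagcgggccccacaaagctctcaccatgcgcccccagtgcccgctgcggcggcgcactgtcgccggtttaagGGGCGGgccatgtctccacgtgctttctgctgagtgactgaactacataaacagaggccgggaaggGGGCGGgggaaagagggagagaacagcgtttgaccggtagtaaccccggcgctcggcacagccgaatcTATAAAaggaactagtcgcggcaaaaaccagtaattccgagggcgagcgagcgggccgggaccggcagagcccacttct
This window had a GC content of 62.7% and 26 CpG, and TATAAA was found on either strand in 13.6% of all windows. The liver X receptor element searched, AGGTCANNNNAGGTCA on both strands, had no match in the windows of ABC genes, and it was found in 0.0152% of all windows. This search allowed no mismatch, so an imperfect repeat would have been missed. The lack of a match therefore does not show that a window lacks the element. A window was found for 38 of the 48 genes, and Abcg1 was among the 10 without one, so its start was not searched.

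Abcg5 and Abcg8, chosen here after their values were seen, form the apical sterol exporter that returns plant sterols and cholesterol to the gut lumen, and they lie head to head on chromosome 17. Abcg5 had 6.96, 9.11 and 6.41 in DKO tumors 1 to 3 and 6.65, 7.002 and 6.99 in ApcKO tumors 1 to 3. Abcg8 had 6.68, 7.62 and 6.25 in DKO tumors 1 to 3 and 6.29, 6.69 and 6.49 in ApcKO tumors 1 to 3. Both genes were highest in DKO tumor 2 and lowest in DKO tumor 3. The log2 fold changes of 0.61 and 0.36 became −0.19 and −0.021 without DKO tumor 2, so the higher means rested on that tumor.

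**Figure D2:**
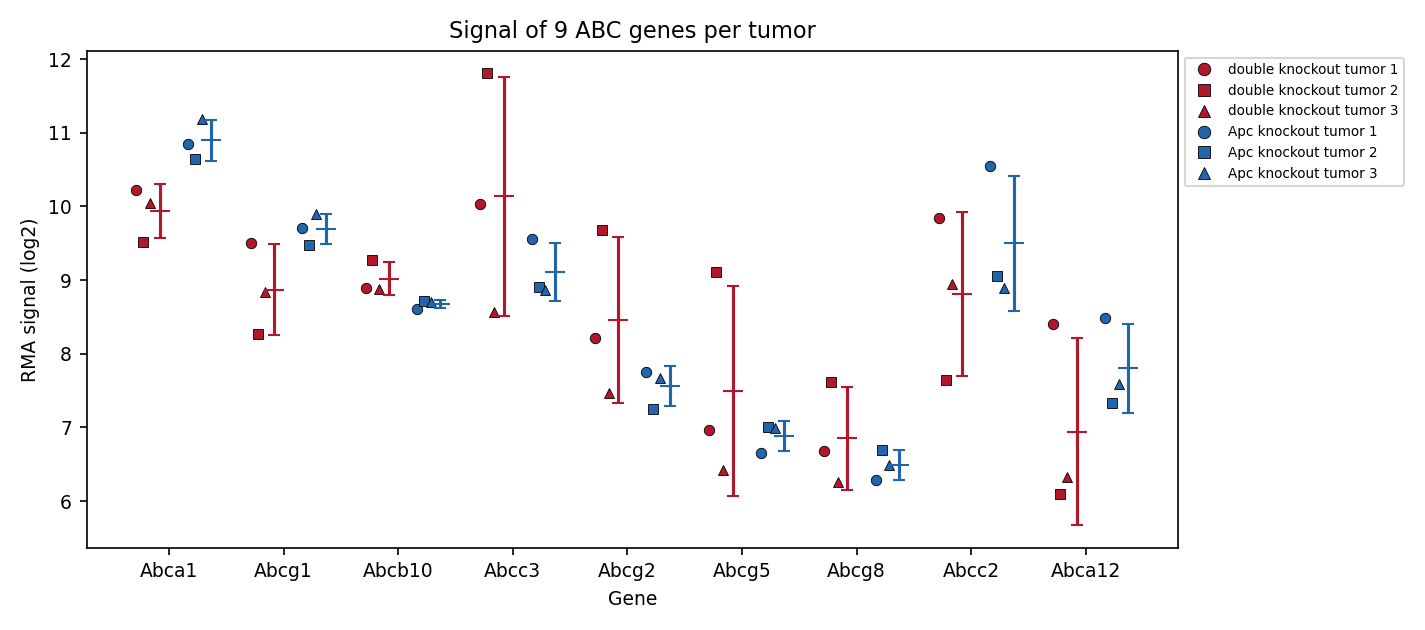
RMA signal (log2) of 9 ABC genes in each tumor (symbols), with DKO left of ApcKO for each gene and group means ± SD beside them. Abca1 did not overlap on the lower side and Abcb10 on the higher side, whereas Abcc3, Abcg2, Abcg5 and Abcg8 were highest in DKO tumor 2.

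The multidrug efflux pumps had 5 members with lower and 3 with higher means in DKO tumors, and a median log2 fold change of −0.39 over the 8 members, which was −0.095 without DKO tumor 2. Abcb1b and Abcc3 had the largest differences. Abcc3, a basolateral pump for glucuronides and bile acids, had 10.03, 11.81 and 8.57 in DKO tumors 1 to 3 and 9.56, 8.91 and 8.86 in ApcKO tumors 1 to 3. It had both its highest and its lowest value in DKO tumors, with an SD of 1.62 there and 0.39 in ApcKO tumors. Its log2 fold change of 1.03 had a standard error of 0.78 (adjusted p = 0.827 in limma), and the value was 0.19 without DKO tumor 2. Abcg2, the apical pump for urate and many drugs, had 8.22, 9.68 and 7.46 in DKO tumors 1 to 3 and 7.75, 7.25 and 7.67 in ApcKO tumors 1 to 3. Its log2 fold change was 0.90 (standard error 0.55), and 0.28 without DKO tumor 2. In both genes, DKO tumor 3 lay below at least 2 of the 3 ApcKO tumors.

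Several pumps of subfamily C had the opposite pattern, and these too were chosen after their values were seen. Abcc1, which exports glutathione conjugates, had a log2 fold change of −0.32, Abcc4, which exports cyclic nucleotides and prostaglandins, had −0.54, and Abcc5, a cyclic nucleotide exporter, had −0.46. All 3 were lowest in DKO tumor 2, and their values without it were −0.087, −0.26 and −0.19. Abcc2, the apical pump for glucuronide and glutathione conjugates, had 9.84, 7.64 and 8.95 in DKO tumors 1 to 3 and 10.55, 9.05 and 8.90 in ApcKO tumors 1 to 3. Its range within DKO tumors was wider than the difference between the means (log2 fold change −0.69, and −0.10 without DKO tumor 2).

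For many members the extreme values lay within the DKO group. DKO tumor 2 was the highest or the lowest tumor for 29 of the 42 members, beside 57.5% of all genes, being highest for 17 (29.0% of all genes) and lowest for 12 (28.5% of all genes). DKO tumor 3 was the lowest for 14 members, beside 13.1% of all genes, and the highest for 4, also beside 13.1% of all genes. Among the 17 genes highest in DKO tumor 2 were Abcc3, Abcg2, Abcg5 and Abcb1a, and 12 of the 42 members were both highest in DKO tumor 2 and lowest in DKO tumor 3, beside 6.63% of all genes. In DKO tumors 1 to 3, the smooth muscle markers had means of 8.75, 10.37 and 8.17 and the enteroendocrine markers 7.55, 9.03 and 6.65. In ApcKO tumors they lay between 8.15 and 8.79 and between 6.92 and 6.98. The markers of Wnt targets and crypt stem cells had 10.98, 8.93 and 11.08 in DKO tumors 1 to 3 and 11.27 to 11.46 in ApcKO tumors. The part of this tissue makeup in the ABC signals was not tested.

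**Figure D3:**
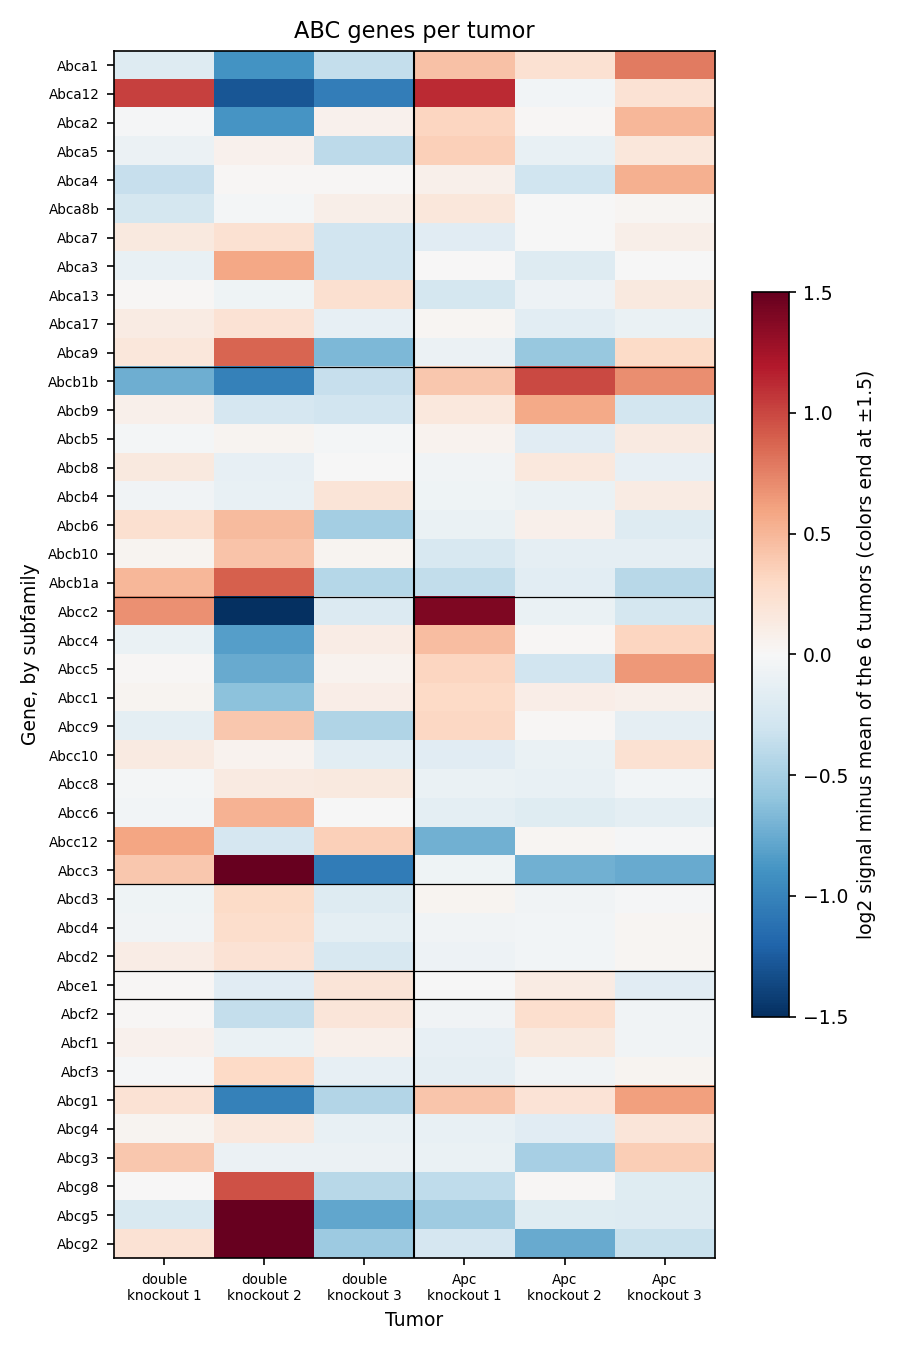
Deviation of each of the 42 tested ABC genes from its mean over the 6 tumors (log2, color scale), with colors ending at ±1.5, in rows grouped by subfamily and with DKO tumors left of ApcKO tumors. DKO tumor 2 held the highest or lowest value for 29 genes, with Abcc3, Abcg5 and Abcg2 among the largest deviations.

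The mitochondrial, peroxisomal and lysosomal transporters had small differences. All 3 mitochondrial members had higher means in DKO tumors, where 48.2% of all genes had a lower mean. Abcb10, which is needed for heme synthesis in red cell precursors of mice, had 8.89, 9.28 and 8.88 in DKO tumors 1 to 3 and 8.61, 8.71 and 8.71 in ApcKO tumors 1 to 3. All DKO tumors were above all ApcKO tumors, and DKO tumor 2 was the highest. The log2 fold change of 0.34 had a standard error of 0.14 (adjusted p = 0.821 in limma), 1.27-fold with a 95% confidence interval of 1.004 to 1.60, and 0.21 without DKO tumor 2. Abcb6, a porphyrin transporter, had 0.14, which became −0.062 without DKO tumor 2. Abcb8, named after its values were seen, had nearly equal means (0.0089, 95% confidence interval −0.30 to 0.32). Of 4 tested members of the peroxisomal and lysosomal list, Abcb9, the lysosomal peptide transporter, had the largest difference at −0.30 (95% confidence interval −0.87 to 0.27). Leaving out ApcKO tumor 2 gave −0.090 and leaving out ApcKO tumor 3 gave −0.51. Abcd2, the peroxisomal transporter of very long fatty acids, had 0.061 (−0.29 to 0.41, and −0.033 without DKO tumor 2).

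The proteins without membrane domains varied little. Abce1, which splits ribosomes after termination, had 11.62, 11.44 and 11.79 in DKO tumors 1 to 3 and 11.60, 11.73 and 11.44 in ApcKO tumors 1 to 3, a log2 fold change of 0.026 (95% confidence interval −0.31 to 0.36). Abcf3 had 0.10 (−0.24 to 0.44) and Abcf2 had −0.10 (−0.53 to 0.32). The groups overlapped for all 3, and their signs changed with the tumor left out, that of Abce1 also with the scaling. The sulfonylurea receptors form ATP-sensitive potassium channels with Kir6 subunits. They had log2 fold changes of opposite sign with 95% confidence intervals that included 0, and were not tested against each other. Abcc8 had 7.14, 7.31 and 7.32 in DKO tumors 1 to 3 and 7.06, 7.06 and 7.12 in ApcKO tumors 1 to 3, with no overlap but a log2 fold change of only 0.17 (95% confidence interval −0.067 to 0.42). Abcc9, the receptor of smooth muscle, had −0.13 (−0.72 to 0.46), and −0.36 without DKO tumor 2, its highest. Abcc6, chosen after its values were seen, had no overlap either, with 7.08, 7.65 and 7.11 in DKO tumors 1 to 3 and 6.98, 6.95 and 6.98 in ApcKO tumors 1 to 3 (log2 fold change 0.31, and 0.13 without DKO tumor 2).

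By subfamily, the median log2 fold changes lay between −0.14 and 0.26, and members of some subfamilies spread further than those of others. The medians were −0.14 for subfamily A (11 of 16 genes tested), 0.016 for B (8 of 9), −0.054 for C (10 of 10), 0.040 for D (3 of 3), 0.027 for F (3 of 3) and 0.26 for G (6 of 6), and the only E gene had 0.026. With the 5 genes below the filter included, the median of A was 0.060, so its sign depends on the filter. The members of B ran between −1.39 (Abcb1b) and 0.64 (Abcb1a), those of C between −0.69 and 1.03, those of G between −0.82 and 0.90, and those of A between −0.96 and 0.24. The 3 members of D lay between 0.017 and 0.061, but such a range tends to widen with the number of genes. The median range over the 6 tumors was 1.5 in G, 1.10 in C, 0.87 in A and 0.76 in B, against 0.46 in D, 0.43 in F and 0.35 in E, beside 0.547 for all genes tested. The median of G was −0.015 without DKO tumor 2. Members of a subfamily share the arrays, so these values are descriptions.

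**Figure D4:**
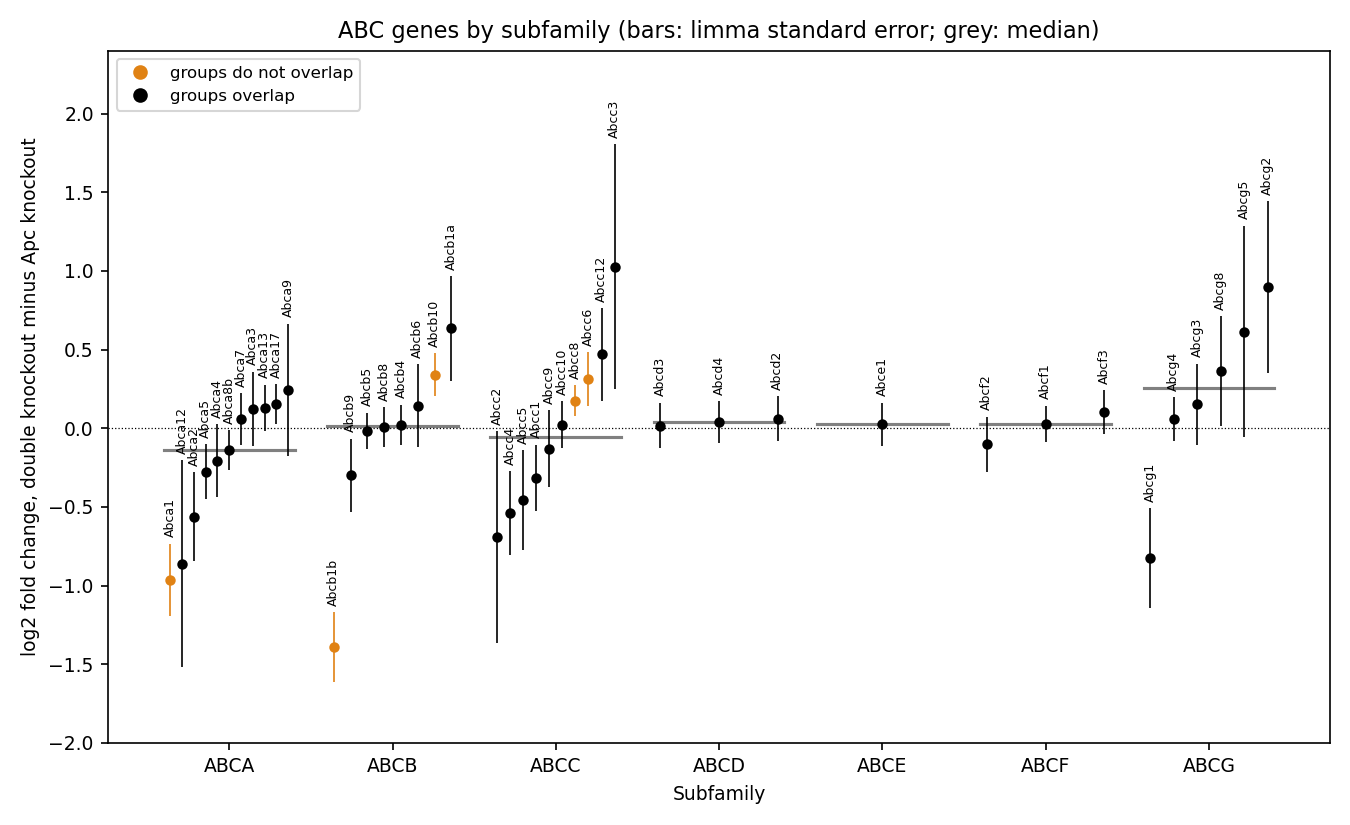
Log2 fold change (DKO minus ApcKO) of each tested ABC gene by subfamily A to G, with a point and limma standard error for each gene, a grey line for each median, and orange for genes whose groups did not overlap. Subfamilies A, B, C and G spread widely around medians of −0.14, 0.016, −0.054 and 0.26, whereas all genes of D, E and F lay between −0.10 and 0.10.

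Neighbouring ABC genes had log2 fold changes of the same sign in some clusters and of both signs in others. The cluster on chromosome 11 held Abca8b at −0.14, Abca9 at 0.24 and Abca5 at −0.28, while Abca17 and Abca3 on chromosome 17 had 0.15 and 0.12. The 6 genes below the filter were Abca6, Abca8a, Abca14, Abca15, Abca16 and the bile salt exporter Abcb11. Their log2 fold changes lay between −0.16 and 0.59, with Abca8a the highest through a value of 6.84 in DKO tumor 2. Abca12, a lipid transporter of the epidermal barrier, had 8.40, 6.09 and 6.33 in DKO tumors 1 to 3 and 8.49, 7.33 and 7.59 in ApcKO tumors 1 to 3. Its log2 fold change of −0.86 was within the spread of DKO tumors (SD 1.27). The genes of this paragraph were named after their values were seen.

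Of the ABC proteins with other symbols, Cftr, the apical chloride channel, had 10.89, 10.47 and 9.54 in DKO tumors 1 to 3 and 9.21, 9.77 and 9.28 in ApcKO tumors 1 to 3. DKO tumor 3 lay within the ApcKO range, and the log2 fold change of 0.88 had a standard error of 0.36 (adjusted p = 0.821 in limma). Tap1 and Tap2, which bring peptides to MHC class I, had 0.090 and 0.057, were lowest in DKO tumor 2, and changed sign with the tumor left out. Among 14 measured transcription factors known for ABC genes, 10 had higher and 4 lower means in DKO tumors, with a median of 0.36, and 0.14 without DKO tumor 2. Hnf4a and the fatty acid receptor Pparg, the second named after its values were seen, had higher signals at an unadjusted p under 0.05 in limma, 2 of 14 factors beside the 1.81% of all genes. Nr1i2, the xenobiotic receptor PXR, had 9.31, 10.54 and 8.61 in DKO tumors 1 to 3 and 8.69, 8.97 and 8.03 in ApcKO tumors 1 to 3, a log2 fold change of 0.92, and 0.40 without DKO tumor 2. Hnf4a, an enterocyte differentiation factor, had 11.73, 12.26 and 11.23 in DKO tumors 1 to 3 and 11.07, 11.07 and 10.49 in ApcKO tumors 1 to 3, with no overlap. Its log2 fold change was 0.86 (standard error 0.30), and 0.60 without DKO tumor 2. Nr1h3, the liver X receptor alpha named here after its values were seen, had 7.83, 8.98 and 7.71 in DKO tumors 1 to 3. In ApcKO tumors 1 to 3 it had 7.56, 7.21 and 7.67, so the groups did not overlap. Its log2 fold change was 0.69 (adjusted p = 0.821 in limma), and 0.29 without DKO tumor 2, its highest. Of 8 partners of ABC proteins, Msn, a membrane linker, and Kcnj8, the Kir6.1 subunit, had the largest differences at −0.27 and −0.21, and the median was 0.083 (−0.049 without DKO tumor 2). The Kcnj8 value moved with single tumors, with −0.50 without DKO tumor 2 and −0.055 without DKO tumor 3.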

How the data were processed

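Laser-dissected colon tumor tissue of 3 DKO and 3 ApcKO mice was hybridized to 1 array each. The authors deposited log2 values after RMA in GeneSpring GX, which were used unchanged. Of 35556 probe sets, 21789 had 1 gene symbol in the platform's annotation, 1621 several and 12146 none. Annotated sets whose mean reached the 20th percentile (5.88) were tested in limma 3.58.1 (R 4.3.3) with lmFit and eBayes, DKO minus ApcKO, and Benjamini-Hochberg adjustment over 19506 sets. Shares of all genes use the highest set of each of 16784 genes. The methods' t-test was an alternative. Groups came from the sample titles, and each mouse was counted as a replicate. Single values were tested by exact two-sided permutation. The scripts were tested on simulated data. Promoter windows and coordinates are from RefSeq GRCm38.p6, and all 48 symbols were found in its gene table.

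Named were Abcb1a, Abcb1b, members with an unadjusted p under 0.05, the largest difference of each subfamily, the 2 largest of each role, transcription factor and partner list, and Tgfbr2, Apc, Cftr, Tap1 and Tap2. Other names are stated as chosen after their values were seen. The members and gene lists were chosen with earlier results of these data known. Alternatives varied the filter, scaling, test, array weights, a replicate block, sex as a covariate and single tumors left out.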

Additional observations from a re-analysis of the deposited data

How the results depend on the processing

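The number of probe sets past an adjusted p of 0.05 was 0 in limma (745 lower and 347 higher at an unadjusted p under 0.05), 0 by the methods' t-test (589 and 409) and 0 with any 1 tumor left out. It was 107 when only sets varying by less than 20% of the mean within each group were kept, and 2744 with array weights. The limit on variation keeps sets by their spread within groups, which the test also uses, so it favors small p-values. With array weights, DKO tumor 1 had a weight of 6.86 and ApcKO tumor 1 one of 5.39, against 0.208 to 0.621 for the other 4, so these calls rest largely on 1 tumor per group. There Abcb1b had −1.18 (adjusted p = 0.0131 in limma) and Abcb1a 0.79 (adjusted p = 0.0304), 9 ABC genes were lower and 11 higher at an unadjusted p under 0.05, and 6578 sets passed it. Cftr had 1.51, Tap1 1.09, Tap2 0.52 and Kcnj8 −0.66 there (adjusted p 0.0175 to 0.0328 in limma). With these weights Abca1 had −0.67 (adjusted p = 0.0171 in limma), Abcb10 0.28 (0.0360), Hnf4a 0.67 (0.0275) and Abcg1 −0.28 (0.279). All probe sets without a filter gave 1771 such sets, and leaving out a tumor gave 677 (without ApcKO tumor 1) to 1716 (without DKO tumor 3), against 1092 in all. Abcb1b, untested under the limit on variation, can move only with scaling, weights, sex or a tumor left out (−1.57 to −1.18). The paralog difference, unmoved by centring, lay between −2.58 and −1.58 (exact permutation p 0.2 without an ApcKO tumor, else its floor of 0.1).

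The count of lower ABC genes, 3, was 2 to 4 with a tumor left out and 0 under the limit on variation, which left 21 ABC genes. The count of higher ones, 1, was 0 with a 40th percentile filter, median centring, a trended robust prior or sex as a covariate (the sex read from the arrays, male in DKO tumors 1 and 2 and ApcKO tumor 3). It was 5 without DKO tumor 3 and 0 without DKO tumor 1 or any 1 ApcKO tumor. With replicate number as a block, 7 ABC genes were lower and 0 higher. Deviations from the group means correlated at −0.203, −0.0649 and 0.0915 for same-numbered tumors, and at −0.214 to 0.26 for differently numbered ones. With 3 arrays per group, these values cannot show whether the numbers pair the mice.

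Signs turned for small differences. With 1 tumor left out, Abcb6 lay between −0.062 (without DKO tumor 2) and 0.43, Abcd2 between −0.033 (without DKO tumor 2) and 0.20, Abcf3 between −0.019 (without DKO tumor 2) and 0.19, and Abcf2 between −0.22 and 0.050 (without DKO tumor 2). Abcc9 lay between −0.36 and 0.065 (without DKO tumor 3), and Abce1 between −0.062 (without DKO tumor 3) and 0.12, with −0.050 without ApcKO tumor 3. Without DKO tumor 1, DKO tumor 3 or ApcKO tumor 1, Tap1 had −0.25, −0.16 and −0.15, with 0.69 at most among tumors left out, and Tap2 had −0.12, −0.0052 and −0.038, with 0.30 at most likewise. Abce1 had −0.013 after further quantile normalization, Abcd2 −0.021 with sex as a covariate, and Abcf2 0.044 with array weights. Where no value shows it, the cause was not tested.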
